A study of Homo sapiens with 21 samples.

Results

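Extrinsic cell death starts at the plasma membrane, where a ligand of the tumour necrosis factor (TNF) family binds a receptor that carries a death domain. TRAIL receptors and FAS bind the adaptor FADD, which gathers caspase-8, while CFLAR takes caspase-8's place in that complex and limits its activation. TNF receptor 1 instead builds a complex on TRADD and RIPK1 that signals to NF-kB, and RIPK1 can pass to caspase-8 or to necroptosis when that complex is disturbed. In human cells, TNFRSF10B is a known target of CHOP, the stress-induced transcription factor encoded by DDIT3, and TNFSF10 is a known interferon-stimulated gene in myeloid cells. Here 9 genes of this system, out of 54042 in the count table, were taken by matching their Ensembl identifiers to gene symbols, with no measured value in the choice. They are the ligand TNFSF10, the receptors TNFRSF10A, TNFRSF10B, FAS, TNFRSF1A and TNFRSF1B, the adaptors FADD and RIPK1, and the regulator CFLAR.

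The cells were MV4-11, an established human leukaemia line that carries both B-lymphoid and myelomonocytic features. Its 21 libraries form 7 groups of 3: HK2 KO cells given ironomycin for 24 h or DMSO, PGP KO cells given ironomycin for 24 h or DMSO, and wild type cells given DMSO or ironomycin for 6 h or 24 h. Ironomycin, also labelled AM5, is a derivative of salinomycin, and DMSO is its solvent. HK2 encodes hexokinase 2 and PGP encodes phosphoglycolate phosphatase. The labels give neither the ironomycin dose nor the time in DMSO, and they do not say whether a knockout was 1 clone. Separate cultures are not stated for the replicates either, so each p-value reflects the spread between these libraries, which may be technical.

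Libraries held 3829274 to 6069264 counts, with a median of 4823817, and 3 counts in a library amount to between 0.498 and 0.803 CPM, a scale that divides counts by the TMM-adjusted library size. HK2 was at 22.0 ± 2.49 CPM in HK2 KO cells and 52.6 ± 14.7 CPM in wild type cells, both in DMSO (SD, n = 3 each), and PGP was at 75.4 ± 7.10 CPM in PGP KO cells and 90.6 ± 4.49 CPM in wild type cells. The labels give no edited site and 3′ tags can persist after an edit, so neither knockout can be checked from these levels. The myeloid genes FLT3 (180 to 468 CPM), CD33 (73.4 to 105 CPM), HOXA9 and MEIS1 were present in every library, while the monocyte genes LYZ and CD14 reached at most 2.01 and 0.535 CPM. Replicate 2 of wild type at 6 h stood apart from its group. The SD over genes of its log2 deviation from the other libraries of the group was 0.675, against 0.332 to 0.480 for the other 20 libraries, so each member's 6 h difference is also given without it.

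Of the 9 genes, 7 passed the low-count filter and were tested. FAS had 0 to 9 counts per library and FADD 0 to 3, and both fell below the filter. TNFSF10 was higher at 24 h in wild type and PGP KO cells, CFLAR was lower at 24 h in PGP KO cells, and the other 5 had no call in any single comparison. With the replicate number as a block, TNFRSF10B was also called in PGP KO cells at 24 h (0.452, edgeR adjusted p = 0.045). The members called under ironomycin were 0 of 7 at 6 h and 1, 0 and 2 of 7 at 24 h in wild type, HK2 KO and PGP KO cells, beside 22%, 29.8%, 29.4% and 31.5% of all genes tested, and with 7 genes these counts show nothing particular to the members. A call means an adjusted p under 0.05 in edgeR's quasi-likelihood test, with Benjamini-Hochberg adjustment across the 11610 genes that passed the filter, and fold changes are log2 values ± SE.

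Promoters were searched because interferon, CHOP and NF-kB are known regulators in this system, and the results set the members beside genes of each. The windows printed below, of TNFSF10, TNFRSF1B and CFLAR, each hold a match. Windows with no match are not printed, nor are those of FAS and RIPK1. RefSeq promoter windows on GRCh38.p14 were at hand for 7 of the 9 members, 14 windows in all, and the 250 bases upstream of each start were searched on both strands. The motifs were the core of the interferon-stimulated response element, GAAANNGAAA, the gamma-activated site, TTCNNNGAA, the C/EBP-ATF composite element, TGATGNAA, and the NF-kB site by its name. They occur in 3.02%, 6.57%, 3.14% and 9.96% of 35116 promoter windows of the same length. Capitals mark the match, and each window is written 5′ to 3′ on the strand of its gene, ending at the base before the start.
TNFSF10, chr3:172523431-172523680, minus strand: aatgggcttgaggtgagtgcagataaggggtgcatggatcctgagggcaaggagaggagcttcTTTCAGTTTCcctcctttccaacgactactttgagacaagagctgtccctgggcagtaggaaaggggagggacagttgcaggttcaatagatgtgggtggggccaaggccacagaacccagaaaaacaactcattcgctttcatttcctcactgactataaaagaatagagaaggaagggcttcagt
TNFRSF1B, chr1:12166741-12166990, plus strand: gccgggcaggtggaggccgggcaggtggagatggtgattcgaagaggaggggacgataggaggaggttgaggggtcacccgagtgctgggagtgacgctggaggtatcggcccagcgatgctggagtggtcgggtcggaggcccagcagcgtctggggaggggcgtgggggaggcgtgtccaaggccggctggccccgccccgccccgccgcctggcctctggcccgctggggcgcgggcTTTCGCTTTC
CFLAR, chr2:201118466-201118715, plus strand: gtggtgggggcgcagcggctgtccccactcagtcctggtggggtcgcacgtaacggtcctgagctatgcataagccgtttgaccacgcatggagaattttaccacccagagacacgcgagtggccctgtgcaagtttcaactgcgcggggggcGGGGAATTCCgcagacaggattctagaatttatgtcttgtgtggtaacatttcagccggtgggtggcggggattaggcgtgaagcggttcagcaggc
In TNFSF10 the interferon element lies 187 to 178 bases upstream, on the strand opposite to the gene. TNFRSF1B holds the same element 10 to 1 bases upstream, and 2 overlapping windows of RIPK1 hold 1 shared match. The first of the 4 CFLAR windows holds an NF-kB match 97 to 88 bases upstream, and 1 of 3 FAS windows holds one 157 to 148 bases upstream. None of the 14 windows held the gamma-activated site or the C/EBP-ATF element. No window was at hand for TNFRSF10A or TNFRSF10B, so neither promoter was searched for any of these motifs. A match is a description of these letters and not evidence of binding.

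TNFSF10, the gene of the ligand TRAIL, had the largest fold change at 24 h among the 7 tested members in each genotype. In wild type cells its libraries read 6.89, 5.63 and 4.81 CPM in DMSO, 6.83, 6.77 and 6.19 CPM at 6 h, and 13.1, 8.93 and 10.9 CPM at 24 h. Every 24 h library was above every DMSO and every 6 h library, whereas the 6 h libraries fell within the DMSO range. TNFSF10 rose at 24 h over DMSO by 0.93 ± 0.32 (fold 1.91, 95% interval 1.21 to 3.00, edgeR adjusted p = 0.0282). It was the only 1 of the 7 tested members called in that comparison, beside 29.8% of all genes tested. The call was lost without DMSO replicate 2 (0.918, edgeR adjusted p = 0.0724), DMSO replicate 3 (0.807, 0.109), 24 h replicate 1 (0.784, 0.108) or 24 h replicate 3 (0.940, 0.0593). At 6 h its change over DMSO was 0.20 ± 0.33 (95% interval -0.49 to 0.88, edgeR adjusted p = 0.714), and 0.193 without replicate 2 (edgeR adjusted p = 0.772).

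In the knockouts, the 24 h means of TNFSF10 also lay above those in DMSO, and PGP KO cells passed the test. PGP KO libraries read 18.6, 9.99 and 7.40 CPM at 24 h, against 8.03, 5.52 and 2.63 CPM in DMSO. These groups overlap, and replicate 1 was the highest library in each, but each 24 h library lay above the DMSO library of the same number. TNFSF10 rose in PGP KO cells by 1.17 ± 0.33 (fold 2.26, 95% interval 1.41 to 3.60, edgeR adjusted p = 0.00799), 1 of 2 members called there beside 31.5% of all genes tested. The call held with the replicate number as a block. It was lost without 24 h replicate 1 (0.704, edgeR adjusted p = 0.112) and without DMSO replicate 3 (0.837, 0.0637). HK2 KO libraries read 6.88, 6.87 and 8.24 CPM at 24 h, against 3.35, 4.75 and 4.81 CPM in DMSO. Here the groups do not overlap, but the difference of 0.76 ± 0.34 (fold 1.69, 95% interval 1.04 to 2.75) did not pass over all genes (edgeR adjusted p = 0.0998). No member was called in HK2 KO cells by edgeR or by DESeq2, beside 29.4% of all genes tested in edgeR, and TNFSF10 was the 1 member with an unadjusted p under 0.05. In a fit of the HK2 KO groups alone it passed (0.744, edgeR adjusted p = 0.0423).

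**Figure D1:**
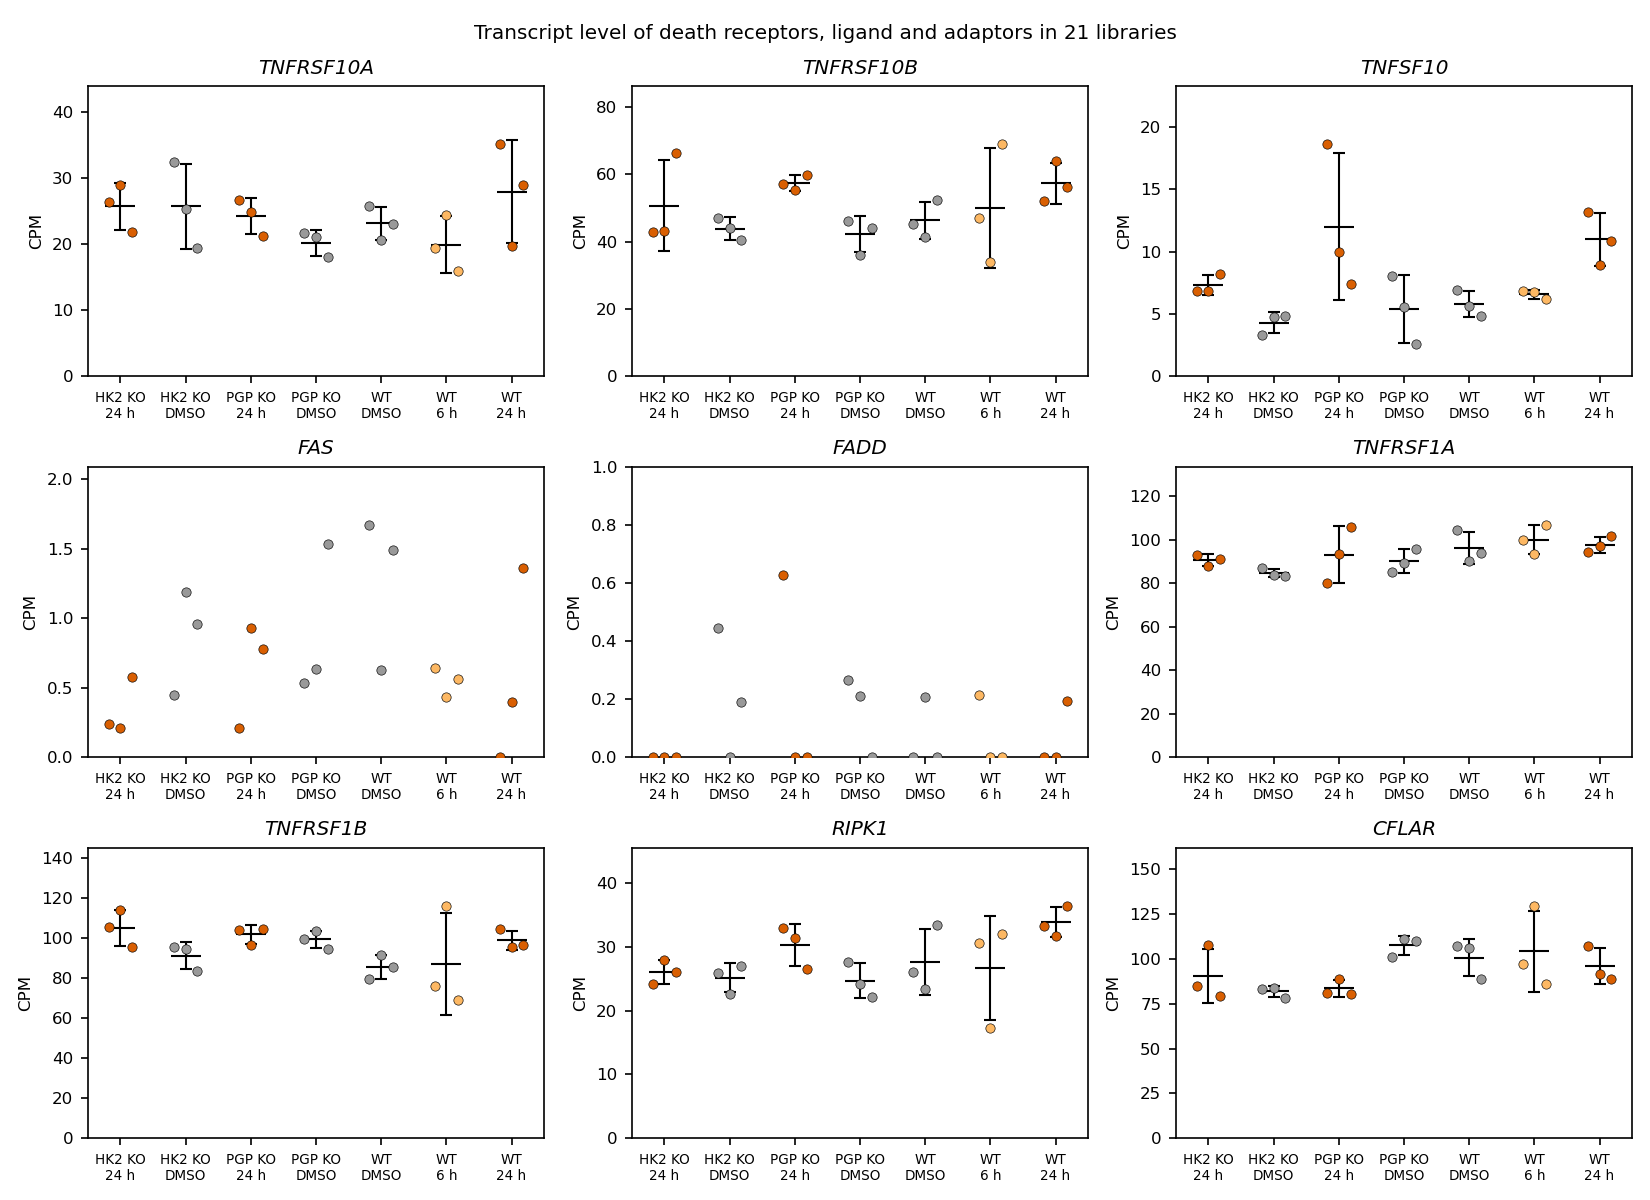
Level of each of the 9 members in CPM (vertical axis, from 0) in every library (points) of the 7 groups, with the group mean (dash) and SD (bars, n = 3; neither is drawn for FAS and FADD, which had at most 9 counts). TNFSF10 at 24 h stands at 12.0 ± 5.88 CPM in PGP KO cells against 5.39 ± 2.70 CPM in DMSO, whereas TNFRSF1A and TNFRSF1B vary little between groups.

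Group means of TNFSF10 ran from 12.0 ± 5.88 CPM in PGP KO cells at 24 h, through 11.0 ± 2.11 in wild type and 7.33 ± 0.790 in HK2 KO cells at 24 h, to 6.59 ± 0.355 at 6 h, 5.78 ± 1.05 in wild type DMSO, 5.39 ± 2.70 in PGP KO DMSO and 4.30 ± 0.827 in HK2 KO DMSO. Neighbours in that order overlap, except HK2 KO at 24 h, which lies below all wild type 24 h libraries and just above all 6 h libraries. The difference in the 24 h response between knockout and wild type was -0.17 ± 0.47 (95% interval -1.14 to 0.80) for HK2 and 0.24 ± 0.46 (95% interval -0.70 to 1.19) for PGP, with an edgeR adjusted p of 1 for both. These intervals are wide enough to hold a response that is much larger or much smaller in a knockout. As an addition chosen after the data were seen, the mean 24 h response over the 3 genotypes was tested. TNFSF10 rose in it by 0.95 ± 0.19 (edgeR adjusted p = 0.000179), and it was 1 of 2 members called, beside 53.8% of all genes tested.

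STAT2, which carries type I interferon signals, was higher than in DMSO at both times. Its wild type libraries read 10.0, 14.2 and 15.9 CPM in DMSO, 39.9, 38.8 and 44.4 CPM at 6 h, and 64.9, 67.6 and 59.7 CPM at 24 h. Unlike TNFSF10, every 6 h library lay above every DMSO library. STAT2 rose at 6 h by 1.61 ± 0.17 (edgeR adjusted p = 3.91e-07) and at 24 h by 2.25 ± 0.16, 2.11 ± 0.16 and 2.15 ± 0.16 in wild type, HK2 KO and PGP KO cells (edgeR adjusted p at most 6.05e-09). IRF1, an interferon-induced factor, rose at 6 h by 0.79 ± 0.20 (edgeR adjusted p = 0.00637), a call lost without replicate 2. At 24 h IRF1 was not called in any single genotype. Its 24 h means were 67.3, 64.6 and 69.9 CPM in wild type, HK2 KO and PGP KO cells, against 47.9, 46.5 and 49.9 CPM in DMSO. In the mean 24 h response, added after the data were seen, IRF1 was called higher, beside 53.8% of all genes called in either direction. The PGP KO library with the highest TNFSF10 at 24 h, replicate 1, did not stand apart for STAT2, at 70.4 CPM against 67.2 and 70.7 CPM in replicates 2 and 3.

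B-lymphoid markers also differed at 24 h. The summed level of 6 genes was 6.998 to 12.3 CPM in wild type cells at 24 h, 11.0 to 14.96 CPM in HK2 KO and 9.30 to 16.1 CPM in PGP KO cells at 24 h, against 26.9 to 55.5, 24.1 to 47.1 and 38.5 to 63.9 CPM in their DMSO groups. IGLL1, the surrogate light chain, fell in wild type cells by 3.61 ± 0.37 on the log2 scale (edgeR adjusted p = 1.32e-07), while PAX5, a B-lineage factor, rose by 1.99 ± 0.44 (edgeR adjusted p = 0.00136). CD79B was at 0 in every library and MS4A1 reached at most 0.192 CPM. The summed level of 10 myelomonocytic markers overlapped between 24 h and DMSO, at 530 to 631 against 483 to 558 CPM in wild type cells, 474 to 613 against 496 to 536 CPM in HK2 KO cells, and 426 to 565 against 402 to 498 CPM in PGP KO cells. FLT3 is the largest term of that sum, and single genes of the list moved in opposite directions. MPO, the granule enzyme myeloperoxidase, fell by 1.18 ± 0.25, 1.10 ± 0.26 and 1.54 ± 0.25 on the log2 scale at 24 h in wild type, HK2 KO and PGP KO cells (edgeR adjusted p at most 0.00239). FCGR1A, a receptor for immunoglobulin G, rose by 0.67 ± 0.18 in wild type and 0.66 ± 0.18 in HK2 KO cells (edgeR adjusted p = 0.0053 and 0.00695) and stood at 0.21 ± 0.18 in PGP KO cells (edgeR adjusted p = 0.408). Of 8 markers of other cell types, 3 were at 0 in every library, and the sum reached 7.67 and 5.65 CPM in replicates 2 and 3 of PGP KO cells at 24 h and at most 3.19 CPM in the other 19 libraries. The part of these markers in the member results was not tested, and in bulk RNA fewer cells of a kind and less RNA per cell cannot be told apart.

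TNFRSF10B, the TRAIL receptor also called DR5, was not called in any single genotype, and its 24 h means lay above those in DMSO by folds of 1.16 to 1.37. Its wild type libraries read 45.1, 41.5 and 52.3 CPM in DMSO, 47.0, 33.8 and 69.0 CPM at 6 h, and 52, 63.9 and 56.2 CPM at 24 h. PGP KO libraries read 57.2, 55.3 and 59.8 CPM at 24 h, against 46.3, 36.1 and 44.1 CPM in DMSO, without overlap. HK2 KO libraries read 42.7, 43.1 and 66.3 CPM at 24 h, against 47.1, 44.1 and 40.4 CPM in DMSO, where only replicate 3 stood above all DMSO libraries. The spread at 6 h spans all other groups, with replicate 2 the lowest and replicate 3 the highest of all 21 libraries. Group means ran from 57.4 ± 2.26 CPM in PGP KO and 57.3 ± 6.03 CPM in wild type cells at 24 h to 42.2 ± 5.35 CPM in PGP KO DMSO, and each pair of neighbours in the order of means overlapped.

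The TNFRSF10B difference from DMSO was 0.45 ± 0.20 in PGP KO cells at 24 h (fold 1.37, 95% interval 1.03 to 1.81, edgeR adjusted p = 0.0877). With the replicate number as a block it passed the threshold there (0.452, edgeR adjusted p = 0.045). In wild type cells it was 0.31 ± 0.19 at 24 h (fold 1.24, 95% interval 0.937 to 1.63, edgeR adjusted p = 0.248), and in HK2 KO cells 0.21 ± 0.20 (fold 1.16, 95% interval 0.877 to 1.54, edgeR adjusted p = 0.442). Across the 3 genotypes the mean 24 h response, added after the data were seen, was a rise of 0.32 ± 0.11 (fold 1.25, 95% interval 1.06 to 1.47, edgeR adjusted p = 0.0188). That call was lost without HK2 KO 24 h replicate 3 (0.241, edgeR adjusted p = 0.0624). At 6 h the difference was 0.11 ± 0.19 (fold 1.08, 95% interval 0.817 to 1.43, edgeR adjusted p = 0.723), and 0.34 without replicate 2 (edgeR adjusted p = 0.196).

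These TNFRSF10B values stood beside a much larger change of CHOP itself. DDIT3 was at 6.98 ± 0.938 CPM in wild type DMSO, 54.3 ± 12.2 CPM at 6 h and 23.0 ± 0.642 CPM at 24 h, a rise of 2.96 ± 0.21 at 6 h (edgeR adjusted p = 1.6e-09) and 1.71 ± 0.21 at 24 h (edgeR adjusted p = 2.36e-06). In HK2 KO cells it was at 22.5 ± 2.48 CPM at 24 h and 8.87 ± 3.10 CPM in DMSO, and in PGP KO cells at 24.3 ± 2.57 and 8.19 ± 0.909 CPM. TRIB3, another CHOP target that encodes a pseudokinase, rose by 3.87 ± 0.24 at 6 h in wild type cells and by 3.46 ± 0.24, 3.42 ± 0.24 and 3.70 ± 0.24 at 24 h in wild type, HK2 KO and PGP KO cells (edgeR adjusted p at most 1.97e-09). At 6 h, when DDIT3 was at its highest, the 95% interval of TNFRSF10B reached a fold of 1.43 with all 6 h libraries kept. That bound hangs on single libraries, as the 6 h difference was 0.34 without replicate 2 and -0.195 without replicate 3. The part of CHOP in the TNFRSF10B values was not tested. RHOBTB2 overlaps the last exon of TNFRSF10B on the opposite strand. The labels name no strand option for counting, so it is not known whether their reads were counted apart.

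**Figure D2:**
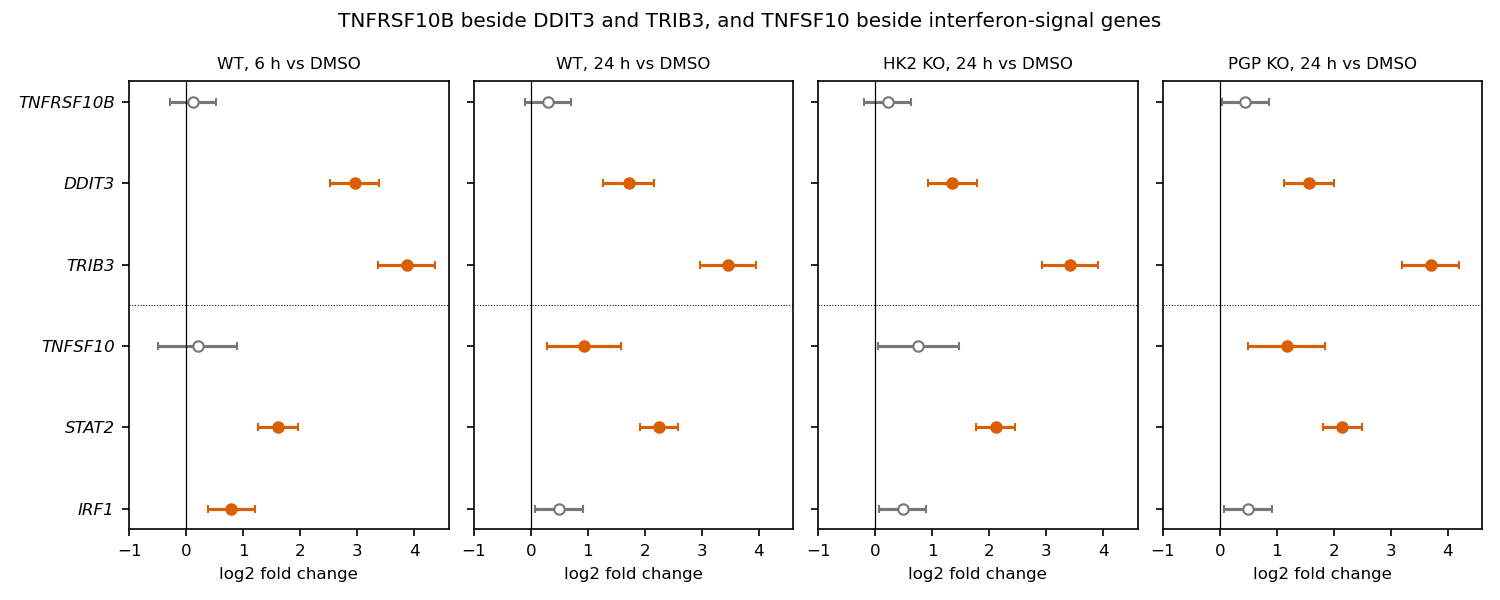
Log2 fold change (horizontal axis; points, with 95% intervals as bars) of TNFRSF10B with DDIT3 and TRIB3, and of TNFSF10 with STAT2 and IRF1, for ironomycin against DMSO in wild type cells at 6 h and 24 h and in HK2 KO and PGP KO cells at 24 h. Filled orange points are called and open grey ones are not. TNFRSF10B lies between 0.11 and 0.45 where TRIB3 lies between 3.42 and 3.87.

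TNFRSF10A, the other TRAIL receptor with a death domain (DR4), had no call. Its wild type libraries read 25.7, 20.7 and 23.1 CPM in DMSO, 19.4, 24.4 and 15.9 CPM at 6 h, and 35.1, 19.6 and 29 CPM at 24 h. HK2 KO libraries read 26.4, 28.9 and 21.9 CPM at 24 h, against 32.4, 25.3 and 19.4 CPM in DMSO, and PGP KO libraries read 26.6, 24.9 and 21.2 CPM at 24 h, against 21.7, 21 and 18 CPM in DMSO. In each genotype the treated groups overlap DMSO, and HK2 KO cells at 24 h lay above PGP KO DMSO. The differences from DMSO were -0.22 ± 0.21 at 6 h and 0.27 ± 0.20 at 24 h in wild type cells, 0.00 ± 0.21 in HK2 KO cells and 0.26 ± 0.21 in PGP KO cells (edgeR adjusted p from 0.348 to 0.990). Without replicate 2 the 6 h difference was -0.376 (edgeR adjusted p = 0.272). The antisense gene TNFRSF10A-AS1 overlaps its last exon. With no strand option named, it is not known whether the reads of these 2 genes were counted apart.

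FAS, the receptor of FAS ligand, and FADD were near the limit of detection. FAS had 8, 3 and 9 counts in the wild type DMSO libraries, 3, 2 and 3 at 6 h, and 0, 2 and 7 at 24 h. HK2 KO libraries had 1, 1 and 3 FAS counts at 24 h, against 2, 7 and 5 in DMSO, and PGP KO libraries had 1, 4 and 4 at 24 h, against 2, 3 and 7 in DMSO. In each case the treated sum was the smaller. The ratio to DMSO was 0.428 (exact 95% interval 0.163 to 1.01) at 6 h and 0.467 (0.187 to 1.07) at 24 h in wild type cells, 0.391 (0.110 to 1.15) in HK2 KO cells and 0.686 (0.255 to 1.77) in PGP KO cells. All 4 intervals include equality, so a difference was not detectable in any single comparison at this depth, and these intervals cover counting error only. With no low-count filter, the mean 24 h response of FAS over the 3 genotypes was -0.972 (edgeR adjusted p = 0.11). That mean was added after the data were seen. FADD had 11 counts in all, with 13 of 21 libraries at 0 and at most 3 in any library. At this depth a count of 0 allows a level of up to 0.803 CPM, and for a 3′ tag a low count need not mean a low mRNA. FADD is overlapped on the opposite strand by AP000879.1.

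Neither TNF receptor was called. TNFRSF1A, the receptor with a death domain, stood between 80.2 and 107 CPM in all 21 libraries. Its differences from DMSO were 0.06 ± 0.10 at 6 h and 0.02 ± 0.10 at 24 h in wild type cells, 0.10 ± 0.11 in HK2 KO cells and 0.05 ± 0.11 in PGP KO cells, with 95% intervals that lie within folds of 0.874 to 1.24 (edgeR adjusted p from 0.531 to 0.902). Without replicate 2 the 6 h difference was 0.119 (edgeR adjusted p = 0.516). Among the members it had the narrowest intervals, and its groups overlap in wild type and PGP KO cells but not in HK2 KO cells at 24 h. TNFRSF1B, which has no death domain and signals through TRAF2, read 79.8, 91.6 and 85.6 CPM in wild type DMSO, 76.0, 116 and 69.4 CPM at 6 h, and 105, 95.6 and 96.6 CPM at 24 h. HK2 KO libraries read 105, 114 and 95.9 CPM at 24 h, against 95.8, 94.7 and 83.4 CPM in DMSO, and PGP KO libraries read 104, 96.7 and 105 CPM at 24 h, against 99.8, 104 and 94.8 CPM in DMSO. The 24 h and DMSO groups do not overlap in wild type and HK2 KO cells. The differences of 0.21 ± 0.14 and 0.20 ± 0.14 there were nevertheless not called (edgeR adjusted p = 0.278 and 0.292), and that in PGP KO cells was 0.04 ± 0.14 (edgeR adjusted p = 0.869). At 6 h it was 0.02 ± 0.14 (edgeR adjusted p = 0.927), and -0.22 without replicate 2, which alone read 116 CPM.

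RIPK1, the kinase that TNF receptor 1 recruits, had no call. Its wild type libraries read 26.1, 23.4 and 33.3 CPM in DMSO, 30.5, 17.2 and 32.1 CPM at 6 h, and 33.3, 31.7 and 36.4 CPM at 24 h. HK2 KO libraries read 24.2, 27.9 and 26.1 CPM at 24 h, against 25.9, 22.6 and 26.9 CPM in DMSO, and PGP KO libraries read 32.9, 31.4 and 26.5 CPM at 24 h, against 27.6, 24.2 and 22.2 CPM in DMSO. In each genotype the treated groups overlap DMSO, whereas wild type at 24 h lay above HK2 KO at 24 h and above both knockouts in DMSO. The lowest library of all was the divergent replicate 2 at 6 h. The differences from DMSO were -0.05 ± 0.18 at 6 h and 0.29 ± 0.18 at 24 h in wild type cells, 0.06 ± 0.18 in HK2 KO cells and 0.30 ± 0.19 in PGP KO cells (edgeR adjusted p from 0.241 to 0.864). Without replicate 2 the sign at 6 h turned, to 0.189 (edgeR adjusted p = 0.445).

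CFLAR, which encodes the caspase-8 inhibitor c-FLIP, was the 1 member that fell, and it did so in PGP KO cells. Its PGP KO libraries read 81.0, 89.0 and 80.7 CPM at 24 h, against 101, 111 and 109.9 CPM in DMSO, with no overlap. CFLAR fell there by 0.36 ± 0.14 on the log2 scale (fold 0.777, 95% interval 0.636 to 0.949, edgeR adjusted p = 0.0494). The adjusted p lies close to the threshold. Leaving out 1 library lost the call for 15 of the 21 libraries, with differences from -0.41 to -0.34 and an edgeR adjusted p of up to 0.127, and testing all genes without the low-count filter also lost it (-0.369, edgeR adjusted p = 0.065). Wild type libraries read 107, 106 and 88.6 CPM in DMSO, 96.9, 129 and 86.2 CPM at 6 h, and 107, 91.4 and 88.8 CPM at 24 h. HK2 KO libraries read 84.8, 108 and 79.4 CPM at 24 h, against 83.0, 84.0 and 78.4 CPM in DMSO. In both genotypes the treated groups overlap DMSO, with differences of 0.05 ± 0.14 at 6 h and -0.07 ± 0.14 at 24 h in wild type cells and 0.15 ± 0.14 in HK2 KO cells (edgeR adjusted p = 0.835, 0.753 and 0.461). Without replicate 2 the sign at 6 h turned, to -0.122 (edgeR adjusted p = 0.576).

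Between genotypes in DMSO, CFLAR was the member with the smallest unadjusted p, and it was not called. Its mean was 81.8 ± 2.99 CPM in HK2 KO cells and 100.7 ± 10.5 CPM in wild type cells in DMSO, with no overlap and a difference of -0.30 ± 0.14 (edgeR adjusted p = 0.910). The order of group means was PGP KO DMSO (107 ± 5.54 CPM), wild type at 6 h, in DMSO and at 24 h, HK2 KO at 24 h (90.6 ± 15.1 CPM), PGP KO at 24 h (83.6 ± 4.72 CPM) and HK2 KO DMSO, and neighbours in it overlapped. The 24 h response of PGP KO cells differed from that of wild type cells by -0.29 ± 0.20 (edgeR adjusted p = 1), so the fall in PGP KO cells was not shown to differ between genotypes. CFLAR-AS1 and IMPDH1P10 overlap its last exons on the opposite strand, and AC007283.1 does so on the same strand. With no strand option named, it is not known whether their reads were counted apart from those of CFLAR.

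**Figure D3:**
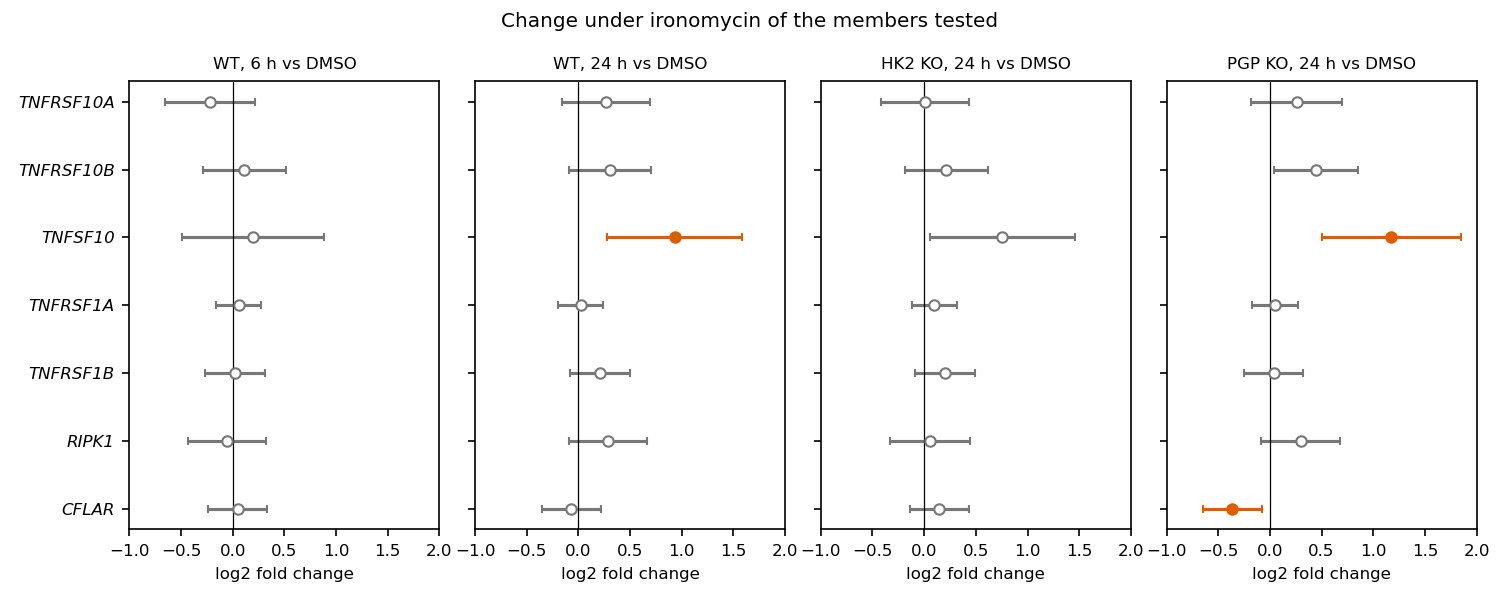
Log2 fold change (horizontal axis; points, with 95% intervals as bars) of the 7 tested members for ironomycin against DMSO in wild type cells at 6 h and 24 h and in HK2 KO and PGP KO cells at 24 h. Filled orange points are called and open grey ones are not. The called values are TNFSF10 at 0.93 in wild type and 1.17 in PGP KO cells, and CFLAR at -0.36 in PGP KO cells.

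At 6 h, 0 of the 7 tested members were called by edgeR, 0 had an unadjusted p under 0.05 and DESeq2 called 0, beside 22% of all genes tested in edgeR. Their median log2 difference was 0.05 at 6 h and 0.27 at 24 h in wild type cells, 0.15 in HK2 KO and 0.26 in PGP KO cells, where the median of all genes tested was 0.02, 0.03, 0.03 and 0.04. Between 24 h and 6 h in wild type cells, a comparison with no DMSO pair at each time, edgeR and DESeq2 called 0 members, beside 16.6% of all genes in edgeR. TNFRSF10A at 0.49 ± 0.21 and TNFSF10 at 0.73 ± 0.31 had an unadjusted p of 0.0283 and 0.0278 there (edgeR adjusted p = 0.113 and 0.112). TNFRSF1B passed without 6 h replicate 2 (0.437, edgeR adjusted p = 0.00874) and TNFRSF10A without 24 h replicate 2 (0.688, edgeR adjusted p = 0.0328). The comparisons of wild type at 6 h and at 24 h with DMSO share the same DMSO libraries.

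The knockouts alone moved no member past the threshold. In HK2 KO against wild type cells in DMSO, edgeR and DESeq2 called 0 of 7 members, beside 0.00861% of all genes in edgeR, 1 had an unadjusted p under 0.05, and differences ran from -0.40 ± 0.35 for TNFSF10 to 0.15 ± 0.21 for TNFRSF10A. In PGP KO against wild type cells in DMSO, both tools called 0 members, 0 had an unadjusted p under 0.05, beside 0% of all genes in edgeR, and differences ran from -0.20 ± 0.21 for TNFRSF10A to 0.21 ± 0.14 for TNFRSF1B. For the difference in 24 h response, edgeR and DESeq2 called 0 members in either knockout, 0 had an unadjusted p under 0.05, and edgeR called 0% of all genes. Those differences ran from -0.27 ± 0.29 (TNFRSF10A) to 0.22 ± 0.20 (CFLAR) for HK2, and from -0.29 ± 0.20 (CFLAR) to 0.24 ± 0.46 (TNFSF10) for PGP.

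Around these members, 3 genes that edit or build ubiquitin chains at the TNF receptor complex rose under ironomycin in all 3 genotypes. In a list of 24 genes of that complex and its NF-kB branch, 20 were tested. Of these, 4 rose, 1 fell and 15 were not called at 6 h in wild type cells, and the counts at 24 h were 5, 3 and 12 in wild type, 6, 1 and 13 in HK2 KO and 6, 2 and 12 in PGP KO cells. The shares called over all genes tested were 22%, 29.8%, 29.4% and 31.5% in the same order, and 3 in place of 5 genes were called at 6 h when only the compared groups were fitted. The median of the list was 0.10, -0.01, 0.08 and 0.13 in those comparisons, near that of all genes tested in each. TNFAIP3, the ubiquitin editor A20 that ends NF-kB signalling, rose by 1.13 ± 0.19 at 6 h (edgeR adjusted p = 0.000212) and by 1.47 ± 0.19, 1.37 ± 0.20 and 1.46 ± 0.20 at 24 h in wild type, HK2 KO and PGP KO cells (edgeR adjusted p at most 1.95e-05). CYLD, a deubiquitinase that trims the chains on RIPK1, rose by 0.73 ± 0.11 at 6 h and by 0.93 ± 0.11, 1.05 ± 0.11 and 0.93 ± 0.11 at 24 h. RBCK1, or HOIL-1, a subunit of the linear ubiquitin ligase, rose by 0.93 ± 0.13 at 6 h and by 1.12 ± 0.13, 0.95 ± 0.13 and 1.20 ± 0.13 at 24 h. These 12 calls held in every alternative and without any 1 library. OTULIN, another deubiquitinase in the list, was called lower, in wild type cells at 24 h only. That call was lost without DMSO replicate 3 and with no low-count filter.

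BIRC3, the gene of the ubiquitin ligase cIAP2 and a known NF-kB target, was nearly silent in DMSO and held low counts under ironomycin. It had 74 counts in HK2 KO and 54 in PGP KO libraries at 24 h, against 1 and 3 in their DMSO libraries, which are ratios of 81.0 (exact 95% interval 14.1 to 3240) and 16.5 (5.34 to 82.4). Wild type cells had 39 counts at 6 h and 56 at 24 h, against 3 in DMSO, for ratios of 13.9 (4.42 to 70.3) and 19.4 (6.29 to 96.7). Its paralogue BIRC2, which encodes cIAP1, rose at 24 h by 0.46 ± 0.14, 0.48 ± 0.15 and 0.55 ± 0.15 in wild type, HK2 KO and PGP KO cells (edgeR adjusted p = 0.0187, 0.0159 and 0.00671). The wild type and HK2 KO calls of BIRC2 were each lost without any 1 of 2 libraries, with an edgeR adjusted p of up to 0.13. TRAF1, an adaptor of TNF receptor 2, rose by 1.33 ± 0.37 in HK2 KO and 1.67 ± 0.37 in PGP KO cells (edgeR adjusted p = 0.00906 and 0.00132) and stood at 0.91 ± 0.36 at 24 h in wild type cells (edgeR adjusted p = 0.0582). TRAF2, which recruits both cIAP proteins, fell by 0.77 ± 0.20 on the log2 scale in wild type cells at 24 h and by 0.82 ± 0.20 in PGP KO cells (edgeR adjusted p = 0.0054 and 0.00286), and stood at -0.53 ± 0.20 in HK2 KO cells (edgeR adjusted p = 0.0538).

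**Figure D4:**
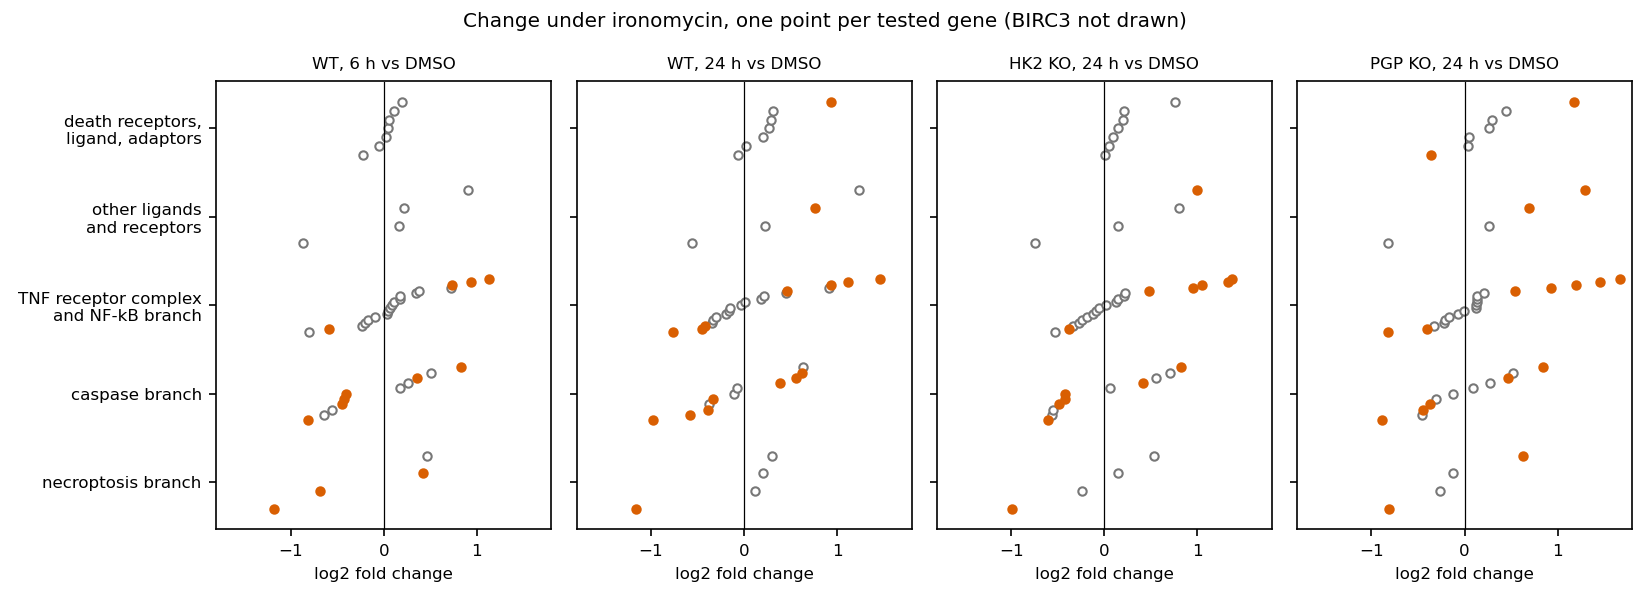
Log2 fold change (horizontal axis) of the tested members and the tested genes of the 4 pathway lists, for ironomycin against DMSO in the same 4 comparisons. Each row holds the members or a list, with 1 point a gene. Filled orange points are called and open grey ones are not. BIRC3 is not drawn because its DMSO groups held at most 3 counts. In the lists, points far to the right include TNFAIP3, CYLD, RBCK1, TRAF1 and LTB, and the one furthest left is PGAM5 in wild type cells.

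Downstream of FADD, the caspase list of 13 genes had 11 tested. Of these, 2 rose, 4 fell and 5 were not called at 6 h in wild type cells, and at 24 h the counts were 3, 4 and 4 in wild type, 2, 4 and 5 in HK2 KO and 2, 3 and 6 in PGP KO cells, with medians of -0.41, -0.11, -0.42 and -0.13. The shares called over all genes tested were 22%, 29.8%, 29.4% and 31.5%. These counts hang on single libraries and on the fit. The 6 genes called at 6 h became 1 when the other groups were left out of the fit and 3 without replicate 2. At 24 h the 7 in wild type cells became 1 without 24 h replicate 3 and 4 without DMSO replicate 1, DMSO replicate 2 or 24 h replicate 2. The 6 in HK2 KO cells became 3 without DMSO replicate 3 or 24 h replicate 3, and the 5 in PGP KO cells became 2 without DMSO replicate 3 and 3 without DMSO replicate 1, DMSO replicate 2 or 24 h replicate 3. PEA15, a death effector domain protein that keeps FADD from caspase-8, rose by 0.83 ± 0.16 at 6 h (edgeR adjusted p = 0.000789) and by 0.63 ± 0.16 at 24 h in wild type and 0.82 ± 0.16 in HK2 KO cells (edgeR adjusted p = 0.00501 and 0.000541). It also rose in PGP KO cells by 0.47 ± 0.16 (edgeR adjusted p = 0.0307), a call lost without any 1 of 4 libraries. BID, which links caspase-8 to mitochondria, fell by 0.45 ± 0.13 at 6 h and by 0.39 ± 0.13, 0.42 ± 0.13 and 0.45 ± 0.13 at 24 h in wild type, HK2 KO and PGP KO cells (edgeR adjusted p = 0.0119, 0.0219, 0.0142 and 0.00842). Each BID call was lost without at least 1 library, with an edgeR adjusted p of up to 0.0822. CASP8 itself stood at -0.65 ± 0.25 at 6 h and -0.08 ± 0.25 at 24 h in wild type cells, -0.55 ± 0.24 in HK2 KO and 0.09 ± 0.25 in PGP KO cells, with no call (edgeR adjusted p = 0.0728, 0.850, 0.0921 and 0.816).

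In the necroptosis list 4 of 5 genes were tested, and their numbers higher, lower and not called were 1, 2 and 1 at 6 h, 0, 1 and 3 at 24 h in wild type, 0, 1 and 3 in HK2 KO and 1, 1 and 2 in PGP KO cells, beside 22%, 29.8%, 29.4% and 31.5% of all genes called. The 3 calls at 6 h became 1 with no filter, in the compared groups alone and without DMSO replicate 1, DMSO replicate 2 or 6 h replicate 1. The 2 in PGP KO cells became 1 with no filter, in the compared groups alone and without DMSO replicate 1 or 24 h replicate 1, and the 1 in HK2 KO cells became 2 without HK2 KO DMSO replicate 3 or PGP KO DMSO replicate 1. PGAM5, a mitochondrial phosphatase, fell by 1.18 ± 0.19 at 6 h and by 1.16 ± 0.19, 0.99 ± 0.20 and 0.81 ± 0.20 at 24 h in wild type, HK2 KO and PGP KO cells (edgeR adjusted p at most 0.00314), in every alternative run. MLKL, the pore-forming effector, fell by 0.68 ± 0.22 at 6 h (edgeR adjusted p = 0.0269) and rose by 0.63 ± 0.21 in PGP KO cells (edgeR adjusted p = 0.0241), and both calls were lost when only the compared groups were fitted and without any 1 of 3 libraries at 6 h or 2 in PGP KO cells. RIPK3, its kinase, had no call, with differences between -0.26 ± 0.37 and 0.46 ± 0.35.

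Of 12 other ligands and receptors of the family, 4 were tested, and 0, 1, 1 and 2 of them rose at 6 h and at 24 h in wild type, HK2 KO and PGP KO cells, with none falling, beside 22%, 29.8%, 29.4% and 31.5% of all genes called in either direction. Over the alternatives run, these counts ranged from 0 to 1, 0 to 2, 1 to 2 and 0 to 2. TNF itself rose at 24 h by 0.76 ± 0.24, 1.00 ± 0.24 and 0.69 ± 0.24 in wild type, HK2 KO and PGP KO cells (edgeR adjusted p = 0.0171, 0.00318 and 0.0312), and stood at 0.22 ± 0.24 at 6 h (edgeR adjusted p = 0.554). The wild type call was lost without DMSO replicate 2 or 24 h replicate 3, and the PGP KO call without any 1 of 4 libraries. LTB, which encodes lymphotoxin beta, read 15.5, 112 and 24.5 CPM in PGP KO cells at 24 h, against 13.9, 31.0 and 16.2 CPM in DMSO. Its rise of 1.29 ± 0.46 (edgeR adjusted p = 0.0370) rests on replicate 2, without which the difference was -0.03. The call was also lost in DESeq2 (1.30, DESeq2 adjusted p = 0.0551), in the compared groups alone (1.28, edgeR adjusted p = 0.0922) and without DMSO replicate 1 or 3. The same replicate 2 held 8 counts each of the T-cell genes CD3D and CD3E, against 0 in replicates 1 and 3, 18 counts of LTA, the gene of lymphotoxin alpha, against 3 and 5, and the 7.67 CPM sum of other cell types. The part of those genes in the LTB value was not tested. TNFRSF10D, the TRAIL decoy receptor that lacks a working death domain, had no call, with differences between 0.14 ± 0.27 and 0.26 ± 0.27.

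Across the 21 libraries, the genes whose log2 levels followed TNFSF10 most closely were MCPH1 (Pearson r = 0.921), SAMD9 (0.872) and MIA3 (0.847), and those that followed CFLAR were ZNF609 (0.858), LINC02878 (0.839) and MZT2A (0.823). These values describe 21 libraries that share treatment groups and depth, and they carry no p.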

How the data were processed

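Total RNA of 21 MV4-11 libraries was sequenced from the 3′ end (Qiagen RNeasy and Lexogen QuantSeq, per the labels' protocols). Per the submitters' processing notes, bcl2fastq 2.20.0.422, HISAT2, HTSeq and hg19 were used, with no order or strand setting given. The deposited values are raw counts per Ensembl gene. The genome annotation at hand is on another build, so it gave names and overlaps only, and promoters came from RefSeq on GRCh38.p14.

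Of 54042 genes, 51661 matched a symbol. The low-count filter (filterByExpr on the groups, at least 10 counts and a total of 15) left 11610 genes. The 7 groups were fitted together by quasi-likelihood with TMM factors in edgeR 4.0.16 (with limma 3.58.1 and R 4.3.3), at a common biological coefficient of variation of 0.149. Calls in 9 comparisons used the Benjamini-Hochberg adjustment at 0.05, and the mean 24 h response was added after the data were seen. FAS, FADD and BIRC3 are given as ratios of summed counts with exact 95% intervals that cover counting error only. No pair of libraries was identical (highest r 0.989).

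The members, lists and tests were chosen with earlier results of these data known. Named genes are all members, up to 4 called genes per list and comparison in order of adjusted p, and the regulators DDIT3, TRIB3, STAT2 and IRF1. For each called member, the 3 genes of at least 5 CPM most like it are also named. TRAF1, TRAF2, BIRC2, OTULIN, CASP8, RIPK3, TNFRSF10D, LTA, CD3D and CD3E were added after their values were seen. Alternatives were RLE factors, DESeq2 1.42.0, no filter, a block for the replicate number, the compared groups alone and each library left out. Deviations of same-numbered libraries correlated at 0.243, 0.164 and 0.247 between 24 h and DMSO in PGP KO cells, so the numbers were taken to pair those libraries, on the data alone. Under that rule, 2 further genes are not reported here. The pipeline was tested on simulated data. Python 3.11.15, pandas 2.3.3, numpy 2.4.6 and matplotlib 3.10.9 prepared tables and figures.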

Additional observations from a re-analysis of the deposited data

How the results depend on the processing

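The number of members called was the same under RLE factors, no low-count filter and DESeq2 in all 10 comparisons. With only the compared groups fitted, HK2 KO cells at 24 h gave 1 call in place of 0, and the mean 24 h response gave 4 in place of 2, adding TNFRSF1B and RIPK1. With the replicate block the count was 3 in place of 2 in PGP KO cells at 24 h, and in the other comparisons it did not change a member's call. Without 1 library, the count ranged from 0 to 1 in wild type cells at 24 h, from 0 to 1 for 24 h against 6 h, from 0 to 3 in PGP KO cells at 24 h and from 1 to 4 for the mean response, and it stayed at 0 in the other 6 comparisons. TNFRSF10B in PGP KO cells was also called with no filter (0.444, edgeR adjusted p = 0.0417), in the compared groups alone (0.441, 0.0236) and without 6 h replicate 2 (0.45, 0.0333) or 6 h replicate 3 (0.448, 0.0407).

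Signs changed for the values below, and the cause was not tested. TNFRSF1A in wild type cells at 24 h was -0.000515 with no filter. TNFRSF10A in HK2 KO cells at 24 h was -0.00646 with RLE factors, -0.0206 with no filter, -0.00684 in DESeq2 and -0.00865 in the compared groups alone. Without 1 library, the lowest and highest values at 6 h were -0.195 and 0.34 for TNFRSF10B, -0.223 and 0.168 for TNFRSF1B, -0.122 and 0.173 for CFLAR and -0.209 and 0.189 for RIPK1. They were -0.0209 and 0.091 for TNFRSF1A in wild type cells at 24 h, -0.239 and 0.0585 for CFLAR at 24 h against 6 h, and in HK2 KO cells at 24 h -0.162 and 0.197 for TNFRSF10A, -0.0311 and 0.321 for TNFRSF10B and -0.0184 and 0.109 for RIPK1. They were -0.0566 and 0.145 for TNFRSF1A in PGP KO cells, -0.0463 and 0.312 for TNFRSF10A in HK2 KO against wild type DMSO, -0.227 and 0.615 for TNFSF10 in the PGP difference in response, and -0.0349 and 1.74 for LTB in PGP KO cells, where the rise of 1.29 was called.

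Counts over all genes moved by more than 1.5 times in some fits. In the compared groups alone, 1189 genes were called at 6 h in place of 2556, and 753 for 24 h against 6 h in place of 1922. HK2 KO against wild type in DMSO gave 1 call, and 59 with no filter, 19 with the block, 23 in DESeq2 and 18 alone. PGP KO against wild type in DMSO gave 0, and 96 with no filter, 5 in DESeq2 and 2 alone. The differences in response gave 0, and 17 with no filter for HK2, and 18 with no filter and 1 alone for PGP. Of 78 calls of list and regulator genes, 36 were lost in at least 1 setting, 33 of them on leaving out 1 library and 19 (some of them the same) in another setting, and LTB also changed sign. With 3 libraries a group, small changes in genes of a few CPM were beyond reach, which bears on TNFSF10, and FAS and FADD were too low to pass the filter.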
